A study of Saccharomyces cerevisiae with 28 samples.

Results

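The lowest step of a glucose series in budding yeast (Saccharomyces cerevisiae) was examined across genes: the library of strain YL388 at 0.0125% glucose was set against the libraries of the same strain at 0.025 and 0.02%. These are 3 of the 28 samples of the series and 3 of the 9 steady-state libraries of YL388, with 1 library at each concentration. Of 6692 genes in the files, 4833 entered the comparison, because 1321 overlapped another gene and 538 of the rest had a mean under 10 FPKM (fragments per kilobase of gene and per 1e6 mapped fragments) over the 3 libraries. The change of a gene is its log2(FPKM + 1) at 0.0125% minus the mean of its log2(FPKM + 1) at 0.025 and 0.02%. A gene is said below to have risen or fallen only where its value at 0.0125% lay at least 1.5-fold above or below both other libraries on that scale.

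The 3 cultures differed only in glucose as far as the labels tell. All cells carried the strain number YL388, whose genotype the labels do not state, and grew in synthetic minimal medium. Each culture was first grown in 0.2% glucose and then diluted into fresh medium at 0.025, 0.02 or 0.0125% for 2 h, so a concentration is that of the fresh medium. The medium at 0.0125% held 2-fold less glucose than that at 0.025% and 1.6-fold less than that at 0.02%, and the latter pair differed by a ratio of 5 to 4. Nothing in the labels says whether the cultures were separate biological samples. With 1 library a concentration no test was possible, and the concentration and the single culture behind it cannot be told apart. The sizes are therefore read against the difference between 0.02 and 0.025%, which itself holds a small step of glucose. RNA came from whole cultures, in which fewer cells of a type and less RNA per cell cannot be told apart.

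Yeast cells with ample glucose ferment it, grow fast and spend much of their RNA on making ribosomes. In low glucose the kinase Snf1 is active and the repressor Mig1 leaves the nucleus, which frees genes for other sugars, for respiration and, through the activators Cat8 and Adr1, for making sugar from ethanol and acetate. Lower protein kinase A activity lets Msn2 and Msn4 enter the nucleus, where they bind the stress response element and turn on stress genes, while genes for ribosome synthesis are turned down. At the end of mitosis a further wave of genes serves the splitting of the septum between mother and daughter and the start of the new G1 phase.

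Read as Poisson intervals, the bounds deposited beside the values corresponded to 7.77 M fragments (M, 1e6) at 0.025%, 8.44 M at 0.02% and 6.36 M at 0.0125%, within the 5.92 to 8.44 M of the 9 YL388 libraries. The median change of all tested genes was 0.03, and log2 median-of-ratios size factors of the 3 libraries lay between -0.02 and 0.02. Changes moved with gene length: the median was 0.13 for the 252 genes up to 300 bp and -0.06 for the 597 over 2500 bp, where the medians of 0.02 minus 0.025% were 0.12 and 0.00. The part of length in the results was not tested. Genes up to 300 bp among those described below as risen or fallen are SIP18 (240 bp), PAI3 (207 bp), COX26 (201 bp), SPG1 (288 bp), DDR2 (186 bp), STF1 (261 bp), STF2 (255 bp) and AGA2 (264 bp). So are YBR182C-A (195 bp), YHR086W-A (162 bp) and the short open reading frames listed at 0 that are named at the end.

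At 0.0125% glucose 146 genes lay at least 1.5-fold above both other libraries, which is 3.02% of the tested genes, and 50 lay at least 1.5-fold below both, which is 1.03%. At 2-fold the counts were 38 (0.786%) and 13 (0.269%). Between the pair of reference libraries, 0.02% lay at least 1.5-fold above 0.025% in 50 genes (1.03%) and below it in 16 (0.331%), a comparison of single libraries. The median size of the change without its sign was 0.16 at the last step and 0.09 between 0.02 and 0.025%, and the 95th percentiles were 0.64 and 0.32. Among the genes that rose, 143 of 146 had their highest value of all 9 YL388 libraries at 0.0125%, and 44 of the 50 that fell had their lowest value there. The rule already sets 0.0125% outside both reference libraries, so these ranks are in part built in. The share over all tested genes is not given, and the ranks are a description only. The change exceeded 2 counting standard errors, as read from the bounds, for 138 of the 146 and 41 of the 50. No such error could be read for 1 of the 146 and 4 of the 50. The rule picks genes by the size of the same change, so these counts are also a description only.

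Among the 4833 tested genes, the last halving of glucose had more genes past 1.5-fold than any of the 4 halvings before it. These genes were filtered by their mean over 0.025, 0.02 and 0.0125%, so genes expressed mainly at higher glucose could be left out. The counts of the halvings are therefore a description only. Between single libraries, 30 genes (0.621%) were at least 1.5-fold higher and 63 (1.3%) lower at 0.2 than at 0.4%. At the next halving, to 0.1%, 56 (1.16%) were higher and 23 (0.476%) lower, and from 0.1 to 0.05% 77 (1.59%) and 19 (0.393%). From 0.05 to 0.025% the counts were 109 (2.26%) and 36 (0.745%), and from 0.025 to 0.0125% they were 306 (6.33%) and 127 (2.63%). Among the 4581 genes over 300 bp with a value above 0 in all 9 libraries, the last halving gave 254 and 104 genes, against 77 and 12 at the halving before.

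**Figure D1:**
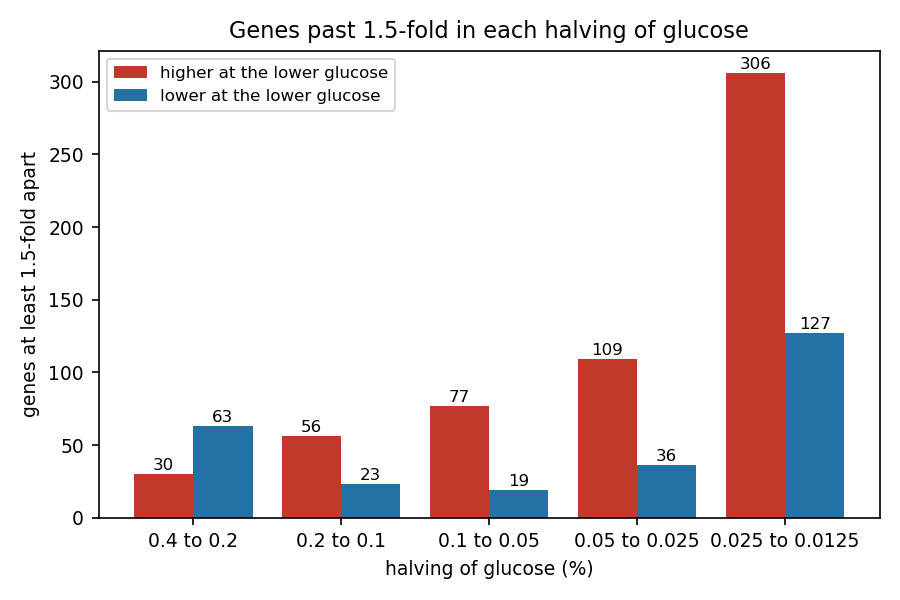
Number of the 4833 tested genes (vertical axis) that were at least 1.5-fold higher (red bars) or lower (blue bars) at the lower glucose concentration of each halving (horizontal axis, %), between single libraries. The last halving, from 0.025 to 0.0125%, has the tallest bars in both directions, with 306 genes higher and 127 lower. The genes were filtered by their mean over 0.025, 0.02 and 0.0125%.

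The 2 directions differed in how many of their genes had been level before the last step. Of the 146 genes that rose, 131 also had a higher value at 0.02 than at 0.025%, and 13 had stayed within a 1.5-fold range over the 8 libraries from 0.4 to 0.02%. Of the 50 that fell, 40 were lower at 0.02 than at 0.025%, and 27 had stayed within that range. Over all tested genes 3813 (78.9%) stayed within it. The shares of all tested genes higher or lower at 0.02 than at 0.025% are not given, so the 131 and 40 are not read further. The 0.02 and 0.025% libraries enter both sides of this reading, so it is given as a description only.

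**Figure D2:**
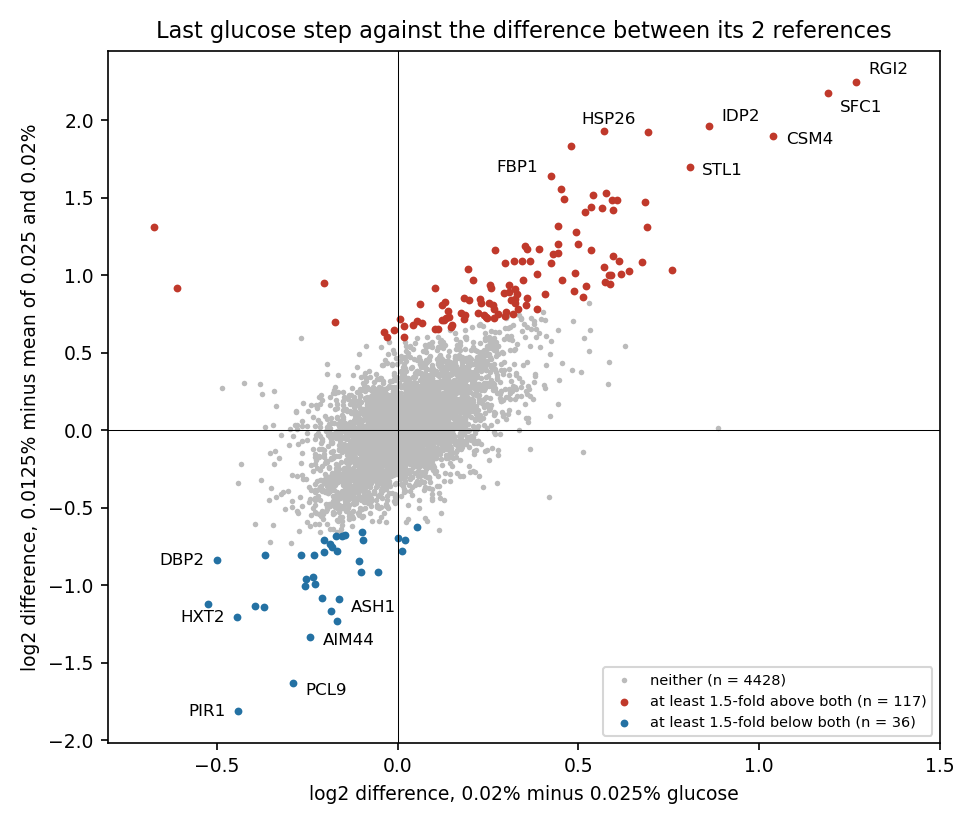
Change at the last step (0.0125% minus the mean of 0.025 and 0.02%, vertical axis) and difference of 0.02 minus 0.025% (horizontal axis), both in log2(FPKM + 1), for 4581 genes over 300 bp and above 0 in all 9 libraries. Red points are the 117 of them that rose and blue points the 36 that fell; the axes share the 0.025 and 0.02% libraries, and RGI2 and SFC1 lie farthest to the upper right, PIR1 and PCL9 lowest.

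Stress genes were prominent among the 146 genes that rose. Of 50 tested genes listed as targets of Msn2 and Msn4, 21 rose and 0 fell, and 49 of the 50 had a change above 0. Over all tested genes 3.02% rose and 1.03% fell, the shares to set beside the counts of this list and of every list below. The median change of the list was 0.58, against 0.03 over all genes, and its median difference between 0.02 and 0.025% was 0.27. From 0.4 to 0.05%, over 3 halvings, the list's median difference was 0.49, and from 0.05 to 0.025% it was 0.39. The hydrophilin SIP18, a small protein made in drying and starving cells, stood at 1771, 3024 and 13036 FPKM at 0.025, 0.02 and 0.0125%. From 0.4 to 0.075% it had stayed between 193 and 295 FPKM, so both reference libraries were already well above that range and the last library far above them. Its change of 2.49 ± 0.043 (counting standard error) was the largest rise among genes with a value above 0 in all 9 libraries. That error is read from the bounds and covers counting alone, while the 0.02 and 0.025% values of SIP18 differed by 0.77. The related hydrophilin GRE1 read 227, 338 and 1059 FPKM, a change of 1.93. PAI3, which encodes an inhibitor of the vacuolar protease Pep4, lies beside SIP18 on chromosome XIII and read 1817, 3003 and 9459 FPKM, a change of 2.02 ± 0.058. The small heat shock protein gene HSP26 read 67.9, 110.4 and 332 FPKM, a change of 1.92, and the cytosolic catalase gene CTT1 119, 152 and 303 FPKM, a change of 1.17. In each of these 5 genes the values rose in the order 0.025, 0.02, 0.0125%.

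Other members of the list that rose included RTN2, DDR2, OM45 and TFS1. RTN2, a reticulon of the endoplasmic reticulum, changed by 1.32, OM45 of the mitochondrial outer membrane by 1.28, DDR2, a stress gene induced by DNA damage, by 0.96 and TFS1, an inhibitor of the protease carboxypeptidase Y, by 1.01. HSP12, a membrane-binding stress protein, read 26818, 33835 and 50472 FPKM, and its change of 0.74 missed the rule because it lay less than 1.5-fold above the 0.02% library. MSN2 itself stood at 43.4, 43.5 and 46.6 FPKM, a change of 0.10, and did not pass the rule. MSN4 stood at 1.43, 1.70 and 0.997 FPKM, under the minimum of 10 FPKM, and was not tested.

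The stress response element is the binding site of Msn2 and Msn4, and the window of 300 bases that ends 51 bases before the coding start was searched for its core, AGGGG, on both strands. A window could be read from the R64 genome for 4785 tested genes, whose coordinates equal those of the RefSeq annotation. The core lay in 23.6% of all 4785 windows, in 52.8% of the 142 windows of genes that rose, in 20% of the 50 windows of genes that fell and in 88% of the 50 windows of the Msn2 and Msn4 list. At least 2 copies lay in 4.01% of all windows and in 19.7% of those of genes that rose. The windows of the 3 genes with the largest rise among those with at least 2 copies are shown, 5′ to 3′ along the gene's strand, to let the spacing of the copies be seen. Capitals mark AGGGG or, where it lies on the other strand, CCCCT. PAI3 (minus strand, chrXIII:610416-610715) holds 3 copies, YNL194C (minus strand, chrXIV:273666-273965) 2 and COX26 (plus strand, chrIV:690664-690963) 2.
PAI3: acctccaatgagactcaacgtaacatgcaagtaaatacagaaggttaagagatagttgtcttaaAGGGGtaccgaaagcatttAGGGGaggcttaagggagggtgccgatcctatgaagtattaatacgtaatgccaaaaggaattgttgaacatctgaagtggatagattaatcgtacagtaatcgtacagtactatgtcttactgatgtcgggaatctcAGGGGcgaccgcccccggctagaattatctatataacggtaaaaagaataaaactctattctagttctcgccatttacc
YNL194C: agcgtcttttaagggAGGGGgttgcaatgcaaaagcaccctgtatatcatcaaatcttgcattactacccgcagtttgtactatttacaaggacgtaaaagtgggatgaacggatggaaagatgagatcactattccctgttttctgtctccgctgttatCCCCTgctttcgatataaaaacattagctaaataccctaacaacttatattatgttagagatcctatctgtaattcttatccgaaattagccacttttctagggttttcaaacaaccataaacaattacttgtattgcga
COX26: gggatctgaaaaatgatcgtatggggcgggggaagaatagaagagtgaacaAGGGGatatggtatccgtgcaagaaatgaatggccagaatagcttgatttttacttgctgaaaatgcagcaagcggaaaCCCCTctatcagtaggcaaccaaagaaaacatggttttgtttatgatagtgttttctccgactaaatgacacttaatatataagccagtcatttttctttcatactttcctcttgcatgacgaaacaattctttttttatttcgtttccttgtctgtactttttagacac

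The copies in PAI3 start 286, 267 and 129 bases before the coding start. In YNL194C they start 335 and 190 bases before it, and in COX26 299 and 220. YNL194C encodes a membrane protein of the Sur7 family and read 18.4, 27.9 and 67.4 FPKM, a change of 1.53. The cytochrome oxidase subunit gene COX26 read 296, 549.7 and 1165 FPKM, a change of 1.53. The PAI3 window lies within the 650 bp between PAI3 and SIP18, which are transcribed away from each other. The GC boxes CCCCGC and CCCCAC, forms of the Mig1 site that do not contain the stress core, lay in 3.68% and 4.58% of all windows and in 12.7% and 9.86% of those of genes that rose. A match describes the letters of a window and shows no binding.

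Heat shock chaperones had a smaller median. Of 28 tested, 5 rose and 0 fell, with a median of 0.22. Under median-of-ratios scaling 3 rose, and under quantile normalization 4. HSP104, the disaggregase that pulls proteins out of aggregates, had stayed between 91.1 and 126 FPKM in the 8 libraries down to 0.02% and stood at 192 at 0.0125%, a change of 0.68. HSP42, a small heat shock protein, changed by 0.97 and HSP78, the mitochondrial disaggregase, by 0.78. HSP82, an Hsp90 chaperone, read 125, 133, 147, 164, 156, 159, 118, 115 and 181 FPKM from 0.4 down to 0.0125%, so that its rise of 0.63 followed 2 libraries lower than all others. Of 26 genes for defence against peroxide 18 had a change above 0 and 8 below, down to -0.48, with a median of 0.18. Of the 26, 4 rose and 0 fell. They were CTT1, the peroxisomal catalase gene CTA1, GPX1, a glutathione peroxidase (0.89), and PRX1, the mitochondrial peroxiredoxin (0.76).

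Of 24 tested genes of gluconeogenesis, the glyoxylate cycle and carboxylate transport, 10 rose and 0 fell, with a median of 0.55, against 0.23 between 0.02 and 0.025%. SFC1, the carrier that exchanges succinate for fumarate across the mitochondrial membrane, read 30.5, 70.9 and 214 FPKM, a change of 2.17 ± 0.073. The cytosolic isocitrate dehydrogenase gene IDP2 read 76.0, 139 and 404 FPKM, a change of 1.96 ± 0.045. Both had their values in the order of falling glucose. FBP1, fructose-1,6-bisphosphatase, the enzyme that runs a glycolytic step backwards, read 25.8, 35.0 and 95.7 FPKM, a change of 1.64 ± 0.10. PCK1, which makes phosphoenolpyruvate from oxaloacetate, read 14.1, 21.4 and 48.8 FPKM, a change of 1.43. The glyoxylate cycle genes MLS1, malate synthase, and ICL1, isocitrate lyase, changed by 1.42 and 0.91.

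Among carriers of other carbon compounds, the lactate and pyruvate carrier JEN1 read 62.0, 100.2 and 221 FPKM, a change of 1.47, and the acetate carrier ADY2 had a change of 1.41. ATO2 and ATO3, of the same family as ADY2, had changes of 0.52 and 0.06 and did not pass. STL1, which brings glycerol into the cell with protons, read 54.1, 95.5 and 235 FPKM, a change of 1.70. The enzyme gene ACS1, for acetyl-CoA synthetase, changed by 0.91. Of 13 genes for ethanol, acetaldehyde and acetate 10 had a change above 0 and 3 below, down to -0.61, with a median of 0.23. Of the 13, 3 rose and 0 fell. ADH2, the alcohol dehydrogenase that consumes ethanol, read 91.6, 133 and 301 FPKM, a change of 1.44. The other 2 were ALD3, a cytosolic aldehyde dehydrogenase induced by stress, with a change of 1.13, and ACH1, which moves CoA between acetate and succinate in mitochondria, with 0.97. ADH1, the fermentative alcohol dehydrogenase, had a change of 0.25 and did not pass. ADH1 and ADH2 are closely alike in sequence, so reads may be shared between them.

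**Figure D3:**
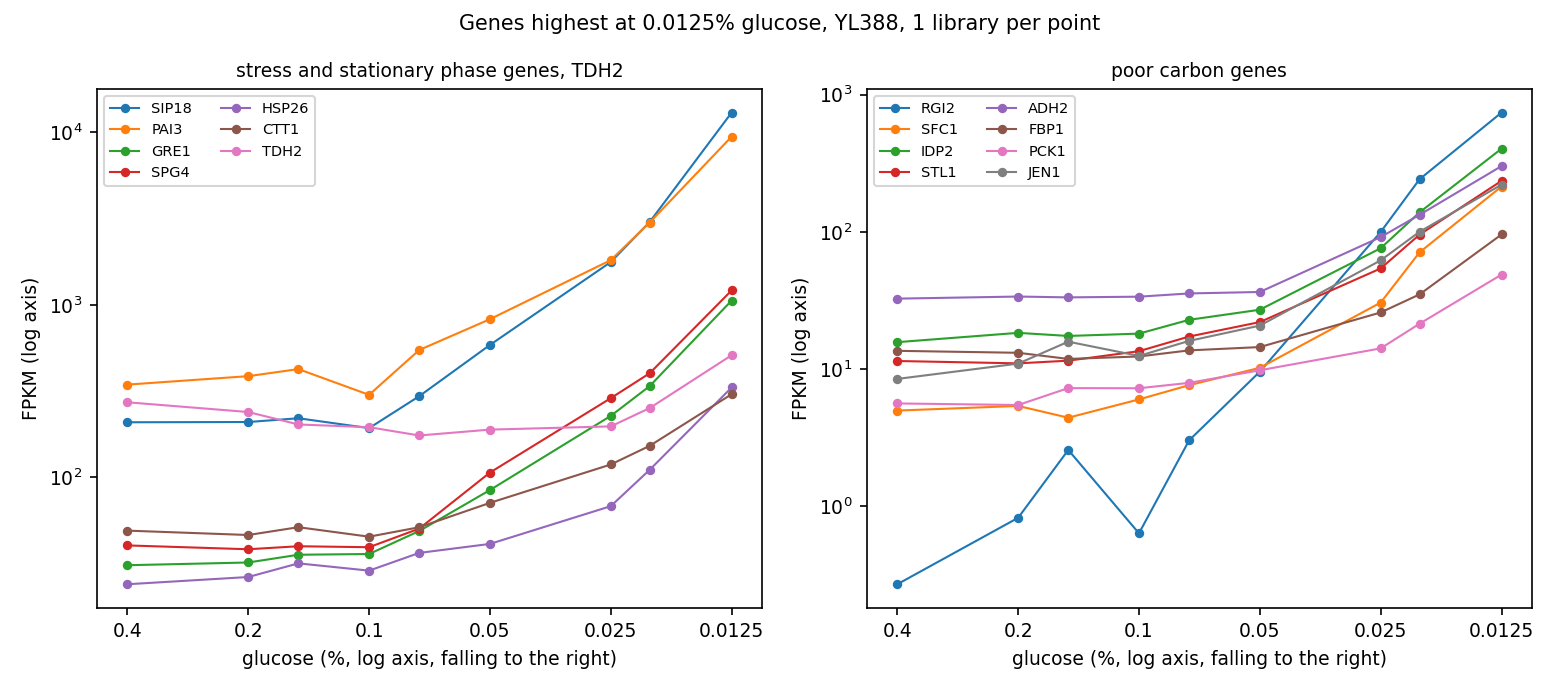
FPKM (log axis) of genes that rose at the last step, in each of the 9 YL388 libraries, against glucose (%, log axis, falling to the right); each point is 1 library. The right-most point, 0.0125%, is the highest of the 9 for each gene drawn.

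Respiratory genes were nearly all higher, most by less than the rule asks. All 19 tested genes of the tricarboxylic acid cycle had a change above 0, with a median of 0.54, and 2 passed the rule. Those were CIT1, mitochondrial citrate synthase, with 466, 579 and 930.1 FPKM and a change of 0.84, and IDH1, a subunit of isocitrate dehydrogenase, with a change of 0.89. Under median-of-ratios scaling 18 of the 19 were above 0. In the respiratory chain and ATP synthase 40 of 41 had a change above 0, the median was 0.35, and 5 rose. They were NDE2, an NADH dehydrogenase on the outer side of the inner membrane (17.9, 24.4 and 45.3 FPKM, a change of 1.08), STF2 (1.02) and STF1 (0.92), which act on the ATP synthase inhibitor, CYB2, which passes electrons from lactate to cytochrome c (0.93), and GUT2, which passes them from glycerol phosphate to ubiquinone (0.88). None of the 5 is a core subunit of complexes III, IV or V of the chain. The cytochrome oxidase subunit gene COX26, which rose with a change of 1.53, is not in this list. COX5B, the hypoxic form of a cytochrome oxidase subunit, was the single member below 0, at -0.25. NDE1, the paralog of NDE2, had a change of 0.21 and did not pass.

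Of 15 genes of fatty acid oxidation 5 rose, all 15 were above 0 and the median was 0.57. POT1, the thiolase of the peroxisome, read 23.9, 27.5 and 53.7 FPKM, a change of 1.04, and POX1, the acyl-CoA oxidase that starts each round, 5.63, 9.33 and 15.8 FPKM, a change of 1.02. POX1 was under 10 FPKM in both reference libraries and was tested only because of its value at 0.0125%, so its count carries no support. CTA1, the peroxisomal catalase, changed by 0.72 and CAT2, carnitine acetyltransferase, by 0.83. The median of the 63 mitochondrial ribosomal protein genes was 0.04 and that of 32 genes of mitochondrial import 0.01, with 0 past the rule in either direction in both lists.

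A list of 31 genes of stationary phase and respiratory growth, named after the phenotypes of their mutants or the state in which they are made, held 10 that rose and 0 that fell, with a median of 0.55. RGI2, of respiratory growth, read 99.7, 242 and 740.1 FPKM, a change of 2.24 ± 0.066. SPG1 and SPG4, needed for survival in stationary phase at high temperature, read 36.1, 45.4 and 159 FPKM and 287, 401 and 1212 FPKM, changes of 1.95 and 1.83. In the 6 libraries from 0.4 to 0.05% SPG4 lay between 38.2 and 106 FPKM, below all 3 of these values. FMP45, a Sur7 family protein of sporulation and stationary phase, changed by 1.49. Of 22 genes of the storage sugars trehalose and glycogen 0 passed the rule, and the median was 0.28, with TSL1, a subunit of trehalose synthase, at 0.54, TPS2, trehalose phosphatase, at 0.46, and GSY2, glycogen synthase, at 0.09.

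Glycolytic genes were higher at 0.0125%, after a lower median at 0.05 than at 0.4%. All 15 tested glycolysis genes had a change above 0, with a median of 0.43, where the median from 0.4 to 0.05% had been -0.19 and that between 0.02 and 0.025% was 0.08. Under quantile normalization 14 of the 15 were above 0. Past the rule were ENO1, TDH2, GPM2 and TDH1. TDH2, 1 of 3 genes for glyceraldehyde-3-phosphate dehydrogenase, read 272, 239, 202, 195, 175, 189, 197, 252 and 510.1 FPKM from 0.4 down to 0.0125%, a change of 1.19 ± 0.041 at the last step. ENO1, the enolase copy induced on poor carbon, read 137, 194 and 376 FPKM, a change of 1.20, and the other copy, ENO2, 1059.8, 1008 and 1207 FPKM, a change of 0.22. TDH1, the copy of resting cells, changed by 0.97. TDH3, the main copy, had a change of 0.45 and did not pass, from 6245 and 6594 to 8780.1 FPKM. These copies are closely alike in sequence, so the authors' counting could split reads between them and the values of each are uncertain. CDC19, pyruvate kinase, and PGK1, phosphoglycerate kinase, overlap other genes and were left out of the counts. They read 802, 768 and 1037 FPKM, after 1823 at 0.4%, and 1934, 2059.9 and 2975 FPKM. TYE7, which encodes an activator of glycolytic genes, lay between 22.5 and 30.8 FPKM in the 8 other libraries and at 48.2 at 0.0125%, a change of 0.81 ± 0.12.

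In the pentose phosphate pathway, which makes NADPH and ribose, 4 of 12 genes rose and the median was 0.26. NQM1 and GND2, second copies of transaldolase and of 6-phosphogluconate dehydrogenase, changed by 1.48 and 1.20, and SOL4, a lactonase of the pathway, by 0.95. These 3 genes are also in the Msn2 and Msn4 list, so the lists are not separate sets of genes.

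**Figure D4:**
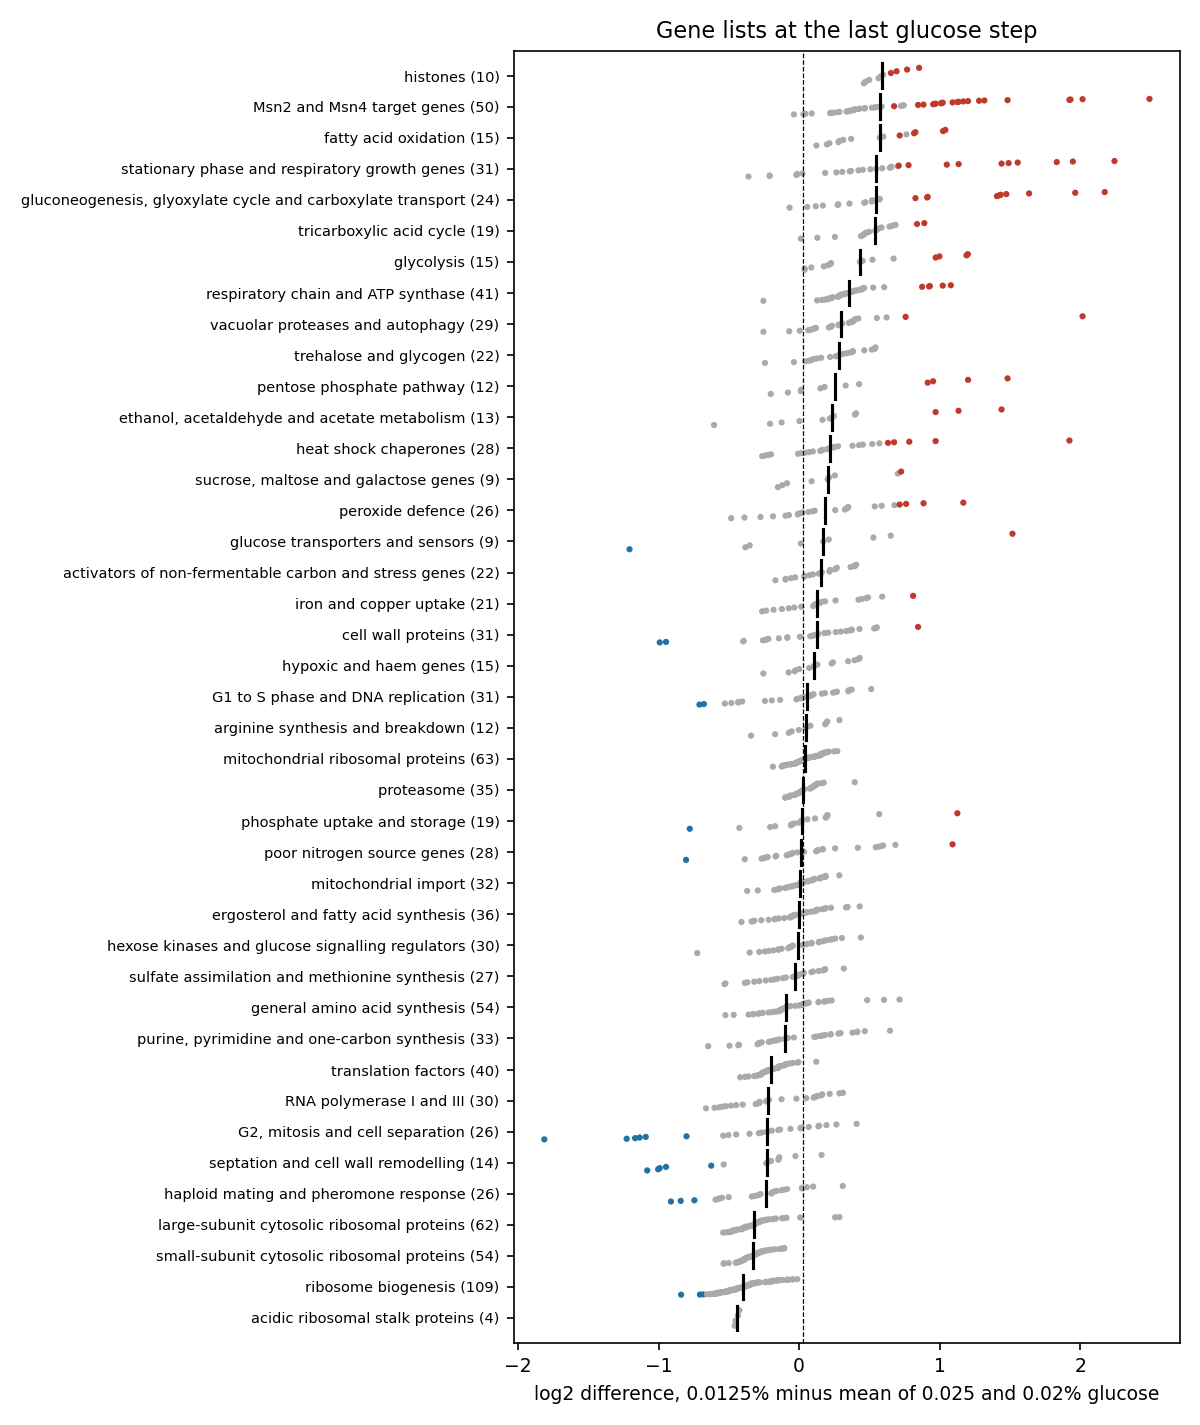
Change at the last step in log2(FPKM + 1) for the tested members of gene lists, with 1 point a gene; red points rose, blue points fell, grey points passed the rule in neither direction, the black bar is the list's median and the dashed line the median of all genes, 0.03. Stress, carbon and respiratory lists lie to the right of the line and ribosome lists to the left, most members without passing the rule.

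Of 9 tested genes for glucose transporters and sensors, 1 rose and 1 fell. HXT5, a transporter of moderate affinity made in slow-growing cells, read 24.1, 35.5 and 85.6 FPKM, a change of 1.52 ± 0.078. HXT2, a high-affinity transporter induced by low glucose and repressed by high glucose, read 409.9, 301 and 152 FPKM, and fell by 1.21 ± 0.042 on the log2 scale. Both were already moving in the same direction from 0.025 to 0.02%. In all 9 libraries from 0.4 to 0.0125%, HXT2 read 794, 793, 772, 726, 669, 611, 409.9, 301 and 152 FPKM, so its last value was the lowest. The low-affinity transporters HXT1 and HXT3 read 10.3, 13.8 and 19.3 FPKM and 15.6, 17.1 and 23.9 FPKM, changes of 0.65 and 0.53 that missed the rule. Also short of the rule were HXT4 at 0.21, HXT6 at 0.17 and HXT7 at -0.35. HXT6 and HXT7, both of high affinity, are nearly identical in sequence and their separate values are uncertain. The values of the sensor genes SNF3 and RGT2 were 0.01 and -0.38. The list's median was 0.17 as defined and -0.05 against the 0.02% library alone.

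Of 22 activators of genes for poor carbon sources and stress 0 passed the rule, with a median of 0.16, and of 30 hexose kinases and glucose signalling regulators 0 did, with a median of -0.01. In the second of these lists 1 gene fell under median-of-ratios scaling and under quantile normalization. The difference was 0.16 for CAT8, 0.22 for ADR1, 0.41 for HAP4, the regulated subunit of the activator of respiratory genes, and -0.35 for MIG1. SUC2, which encodes invertase and is repressed through Mig1, read 288, 403 and 554 FPKM, a change of 0.70 that missed the rule. HXK2, hexokinase of fermenting cells, stood at -0.21, and HXK1, which overlaps another gene, at 0.12.

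Among genes over 300 bp and above 0 in all 9 libraries, PIR1 and PCL9 had the largest falls. The short genes YBR182C-A and YHR086W-A had larger ones, of -2.19 ± 0.82 and -1.96 ± 0.82. Among 26 tested genes of G2, mitosis and cell separation 6 fell and 0 rose, with a median of -0.23 against 0.03 over all genes. In this list 18 genes had a change below 0 and 8 above, the highest being CIS3 at 0.41. PIR1, a cell wall protein, read 899.8, 662 and 219 FPKM and fell by 1.81 ± 0.046, while PIR3 read 18.0, 18.7 and 22.3 FPKM, a change of 0.27 that did not pass. PCL9, a G1 cyclin of the kinase Pho85 and not in that list, read 104, 104, 115, 98.6, 105, 100.4, 108, 87.9 and 30.8 FPKM over the 9 libraries from 0.4 down to 0.0125%. It had stayed between 87.9 and 115 FPKM in the first 8 and then fell by 1.63 ± 0.14. ASH1, the repressor of mating-type switching in daughter cells, read 136, 121 and 59.8 FPKM and fell by 1.09 ± 0.066. EGT2, a cell wall protein of the start of G1, read 123, 93.1 and 48.1 FPKM and fell by 1.14, and DSE4, a daughter-specific glucanase, read 64.4, 56.6 and 26.3 FPKM and fell by 1.17. The rule itself makes the 0.0125% library the lowest of the 3 in PIR1, PCL9, ASH1, EGT2 and DSE4.

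Some genes that act at the bud neck and the septum were also among those that fell. AIM44, a bud neck protein that acts on cytokinesis, read 39.8, 33.5 and 13.9 FPKM and fell by 1.33. CHS1, the chitin synthase that repairs the wall after separation, read 52.2, 44.2 and 24.4 FPKM and fell by 0.95. CYK3 of cytokinesis went from 30.0 FPKM at 0.025% to 13.1 at 0.0125%, and NIS1 of the bud neck had a change of -0.96. UTR2, which links chitin to glucan, read 827, 706 and 384 FPKM, and fell by 0.99. The wall protein genes PST1 and NCW2 had changes of -1.23 and -1.08. A list of 14 genes of septation and wall remodelling, drawn up after the values were seen, held 5 that fell and 9 that did not pass, and its median was -0.23, so its count carries no support of its own. Among genes of the bud neck and the septum that did not pass were INN1 at 0.16, the myosin light chain gene MLC1 at -0.03, BUD4 at -0.15, the myosin gene MYO1 at -0.20, IQG1 at -0.22, and the chitin synthase genes CHS3 at -0.23 and CHS2 at -0.54.

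Other genes of cell separation behaved differently. DSE1 and DSE2, expressed in daughter cells, read 130.4, 123 and 139 FPKM and 387, 325 and 339 FPKM, changes of 0.14 and -0.06. Their drop came earlier, from 230.5 and 582 FPKM at 0.05% glucose. The chitinase gene CTS1, which overlaps another gene and was left out of the counts, read 1268 FPKM at 0.05% and then 708, 635 and 698 FPKM. Left out for the same reason, DSE3 did go down at the last step, with 103, 84.3 and 44.9 FPKM and a change of -1.04. SWI5, an activator of genes of early G1, read 53.2, 63.1 and 52.7 FPKM, a change of -0.14. CLB2, a cyclin of mitosis whose gene is expressed in the same wave as SWI5, had a value of 0.01, and CLN2, a cyclin of late G1, of 0.09. CLN3, the cyclin of early G1, read 32.5, 30.1 and 21.4 FPKM, a change of -0.53. None of these 4 regulator genes passed the rule.

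**Figure D5:**
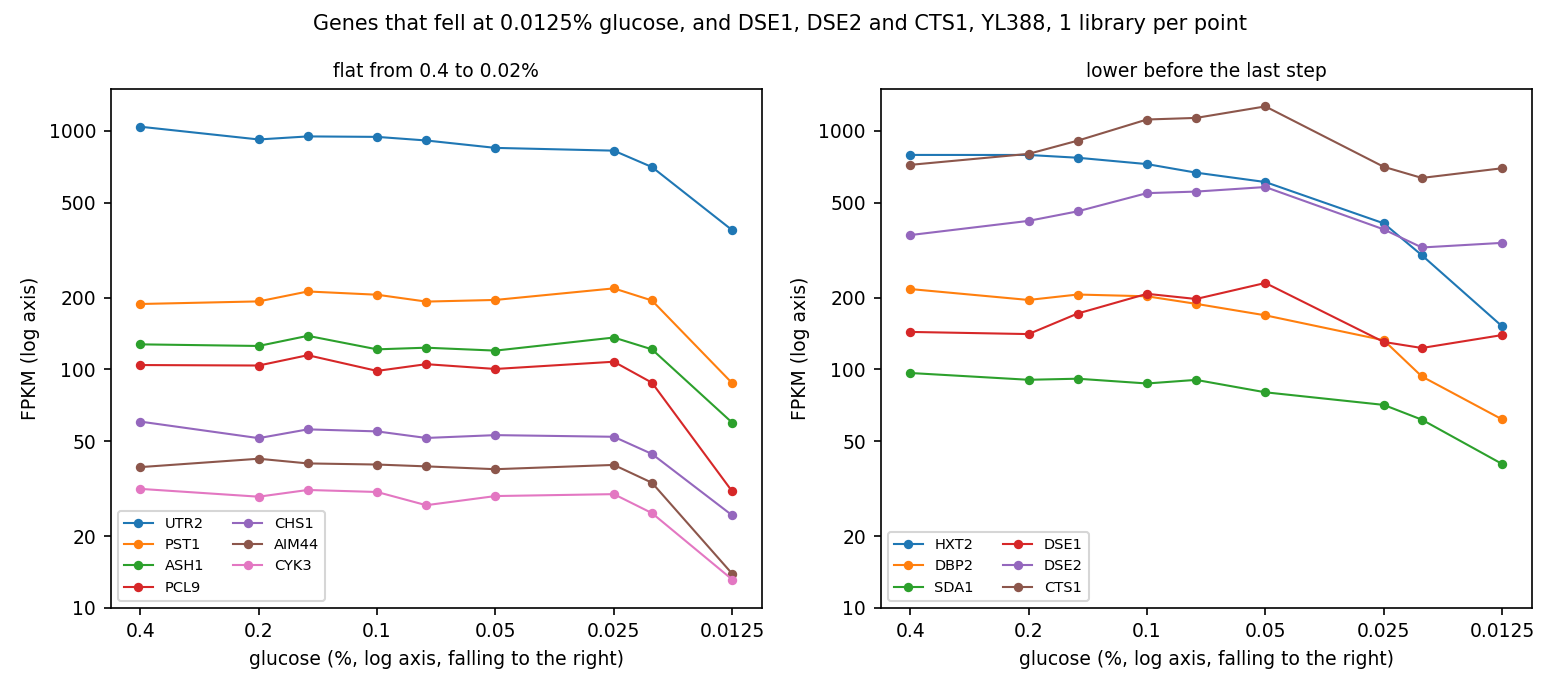
FPKM (log axis) of genes that fell at the last step and of related genes that did not, in each of the 9 YL388 libraries, against glucose (%, log axis, falling to the right); each point is 1 library. In the left panel, of genes level down to 0.02%, each gene is lowest at 0.0125%; in the right panel DSE1, DSE2 and CTS1 have their largest drop between 0.05 and 0.025%.

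Mating genes had a median below 0. Of 26 tested, 3 fell and 0 rose, and the median was -0.24. Under median-of-ratios scaling and quantile normalization 5 fell. BAR1, the protease with which a cells destroy alpha factor, read 134, 125 and 68.4 FPKM and fell by 0.91. FAR1, which halts the cell cycle in response to pheromone, read 66.7, 61.8 and 35.3 FPKM and fell by 0.84, and AGA2, a subunit of the agglutinin of a cells, had a change of -0.75. The alpha factor receptor gene STE2 had a change of -0.60 and missed the rule.

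Of 31 genes of G1, S phase and DNA replication 2 fell and 0 rose, 19 were above 0, and the median was 0.05, against 0.03 over all genes. The 2 are subunits of the replicative helicase: MCM5 read 39.3, 35.4 and 22.9 FPKM and fell by 0.68, and MCM7 read 53.8, 50.4 and 31.5 FPKM and fell by 0.71. MCM2, MCM4 and MCM6 had changes of -0.43, -0.48 and -0.41 and missed the rule. MCM3, which overlaps another gene and was left out of the counts, read 45.7, 42.8 and 27.8 FPKM. Its change was -0.65, and it lay more than 1.5-fold below both other libraries. All 10 tested histone genes had a change above 0, with a median of 0.59, against 0.11 between 0.02 and 0.025%, and 4 rose. The list's median difference was 0.34 from 0.4 to 0.05% and -0.17 from 0.05 to 0.025%, so the higher values at 0.0125% followed a drop. HHT1, for histone H3, read 3512, 3987 and 6763 FPKM, a change of 0.85, and the linker histone gene HHO1 316, 348 and 566 FPKM, a change of 0.77. HHF1 for H4 and HTB1 for H2B changed by 0.69 and 0.65. The core histone genes exist as near-identical pairs, so the values of single copies are uncertain. Under quantile normalization all 10 were above 0 and 2 passed the rule.

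Ribosome synthesis was lower in nearly every gene by amounts mostly within the rule. All 109 tested ribosome biogenesis genes had a change below 0, with a median of -0.40, and 3 fell. Under quantile normalization 108 were below 0 and 5 fell. Their median difference between 0.02 and 0.025% was -0.15. All 54 small-subunit ribosomal protein genes were below 0, with a median of -0.33, and 59 of 62 large-subunit genes were, with a median of -0.32, and 0 of either passed the rule. Many ribosomal protein genes have a near-identical second copy, whose reads the counting could split. The 4 genes of the acidic stalk had a median of -0.44, 40 translation factors -0.20 with 39 below 0, and 30 subunits of RNA polymerases I and III -0.23 with 19 below 0, with 0 past the rule in these lists. Under median-of-ratios scaling 1 gene of the polymerase list fell.

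Among the genes of ribosome synthesis, the RNA helicase gene DBP2 read 133, 93.4 and 61.7 FPKM and fell by 0.84 ± 0.067. SDA1, needed to export the large subunit from the nucleus, read 71.0, 61.5 and 40.1 FPKM and fell by 0.71. UTP20, a part of the machinery that cuts the small-subunit RNA, read 14.2, 12.5 and 7.95 FPKM and fell by 0.68. NOP1 of the nucleolus had a change of -0.56 and missed the rule, and NSR1, which overlaps another gene and was left out of the counts, had a change of -0.79. SNU13, shared by the U3 snoRNP and the spliceosome, read 1556, 1367 and 875 FPKM and fell by 0.74. TOD6, which encodes a repressor that binds the PAC motif of these genes, read 38.8, 34.7 and 22.5 FPKM and fell by 0.68.

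The PAC motif GATGAG and the motif RRPE, AAAAATTTT, are known from the promoters of ribosome biogenesis genes. On either strand PAC lay in 19.3% of all 4785 windows and in 88.1% of the 109 windows of the ribosome biogenesis list, and RRPE in 8.59% and 64.2%. In the windows of the 50 genes that fell the shares were 22% and 12%, and RRPE lay in 1.41% of those of genes that rose. The windows of DBP2 (plus strand, chrXIV:413289-413588) and SDA1 (minus strand, chrVII:982119-982418) are shown because these genes had the largest falls in the list. Capitals mark PAC and RRPE on either strand, and the complement of PAC is CTCATC.
DBP2: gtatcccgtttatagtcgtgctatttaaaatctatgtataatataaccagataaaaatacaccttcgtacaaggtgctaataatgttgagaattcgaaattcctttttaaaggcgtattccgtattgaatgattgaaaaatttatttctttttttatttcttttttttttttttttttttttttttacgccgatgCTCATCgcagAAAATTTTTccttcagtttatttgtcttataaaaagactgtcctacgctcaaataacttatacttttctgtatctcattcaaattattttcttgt
SDA1: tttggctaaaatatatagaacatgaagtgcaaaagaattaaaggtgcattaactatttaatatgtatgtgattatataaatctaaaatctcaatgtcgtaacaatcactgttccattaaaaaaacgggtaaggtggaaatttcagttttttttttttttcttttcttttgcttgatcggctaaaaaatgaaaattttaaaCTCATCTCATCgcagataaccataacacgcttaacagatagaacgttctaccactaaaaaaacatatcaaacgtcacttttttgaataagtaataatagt

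In DBP2 a PAC starts 155 bases before the coding start and an RRPE 145 bases before it. SDA1 holds 2 overlapping copies of PAC, which start 150 and 145 bases before the coding start, and no RRPE in this window.

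The remaining lists held at most 3 genes past the rule each. With 3.02% of all tested genes risen and 1.03% fallen, counts this small are not read as results about the lists. Of 35 proteasome genes, 36 of ergosterol and fatty acid synthesis, 27 of sulfate and methionine, 12 of arginine, 54 of general amino acid synthesis and 33 of purine, pyrimidine and one-carbon synthesis, 0 passed the rule, with medians of 0.03, 0.00, -0.03, 0.05, -0.09 and -0.10. Under quantile normalization 1 gene of the purine list rose. BAS1, an activator of purine and histidine genes, is outside those lists and read 18.9, 17.6 and 11.2 FPKM and fell by 0.66. AAH1, adenine deaminase, read 128, 99.2 and 64.0 FPKM and fell by 0.81. The signs of the medians for arginine, proteasome, ergosterol, mitochondrial import and mitochondrial ribosomal genes change with the scaling, as do those of 19 phosphate and 28 poor-nitrogen genes. In the poor-nitrogen list GDH2, which releases ammonium from glutamate, read 37.7, 48.9 and 92.7 FPKM, a change of 1.09, and PTR2, the peptide transporter, read 57.7, 49.0 and 30.0 FPKM and fell by 0.81. In the phosphate list PHM7 read 14.8, 22.8 and 41.3 FPKM, a change of 1.13, and PHO3, an acid phosphatase, read 142, 143 and 82.5 FPKM and fell by 0.78. Of 29 genes of vacuolar proteases and autophagy 27 were above 0 and 2 rose, with a median of 0.30: PAI3 and ATG8, the ubiquitin-like protein of the autophagosome, with a change of 0.76. Of 21 iron and copper genes 1 rose, FIT2 of the cell wall, with a change of 0.81. Of 31 cell wall genes 1 rose and 2 fell, with a median of 0.13: SPI1, a wall protein induced by weak acid, had a change of 0.85, and UTR2 and CHS1 are the 2 that fell. Of 9 genes for sucrose, maltose and galactose 1 rose, GAL7 of galactose use, which read 9.05, 11.1 and 17.2 FPKM, a change of 0.73, and the median was 0.20. Under median-of-ratios scaling and quantile normalization 0 genes of this list rose.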

How the data were processed

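Per the file headers the deposited values are FPKM with confidence bounds, as Cufflinks writes them per gene, and the authors' files hold no counts. Per the submitters' processing notes the tools were TopHat, Cufflinks and DESeq2 and the build sacCer3, without versions or roles; the annotation and the strand setting were not given in the sources used here. Of 6692 genes, 6008 matched the RefSeq annotation of R64, 6000 with identical coordinates.

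Values were taken as log2(FPKM + 1), a scale that understates changes of low genes. Genes overlapping another locus and those with a mean under 10 FPKM were left out. Without replicates no p-value was computed, and the 1.5-fold rule against both references gave all counts. Depth was implied from the bounds of genes over 1500 bp with at least 50 fragments and, like the counting standard error, covers counting error only. In the 3 libraries 49.4 to 53.2% of genes above 0 had an FPKM over the upper bound listed for it, so levels are compared only within a gene. The counting standard errors come from these bounds and may not be those of the printed FPKM. Exact zeros are reported as listed at 0.

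Named genes were the 15 largest rises and falls among genes above 0 in all 9 libraries, up to 3 members a list, the largest turns, and 15 fixed carbon genes; others were added after values were seen. Members, lists and rules were chosen with earlier results of these data known. The alternatives were another pseudocount, filter, scaling, reference library, fold, the centre of the bounds, and leaving out short genes. The scripts (python 3.11.15, numpy 2.4.6, pandas 2.3.3, matplotlib 3.10.9) were tested on simulated data. The YL390 library and 18 transient stress samples were not analysed here, and some items are not reported here.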

Additional observations from a re-analysis of the deposited data

How the results depend on the processing

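No paired analysis was possible because replicate numbers appear only in the transient stress samples, and each concentration has 1 library, so leaving out a replicate was possible only as the choice of reference library. The counts of 146 higher and 50 lower genes became 306 and 127 against the 0.025% library alone, 38 and 13 at 2-fold, and 464 and 315 at a ratio of 5 to 4. With a pseudocount of 10 the lower count was 33, and with overlapping genes kept it was 92. Under the other alternatives both counts stayed within 1.5 times: 131 and 58 with median-of-ratios scaling, 128 and 58 with quantile normalization, and 122 and 36 with the centre of the bounds. Of the 146 genes, 131, 126 and 121 were shared with those settings, and of the 50, 50, 49 and 36, where 15 and 12 of the genes could not be tested with the bounds. The share of called genes that were higher was 74.5% as reported, 69.3% and 68.8% with the scalings, 66.3% with overlapping genes kept and 59.6% at the ratio of 5 to 4. The median of the transporter list went from 0.17 to -0.05 against the 0.02% library alone, that of fatty acid oxidation from 0.57 to 0.41 with a pseudocount of 10, and those of the phosphate and poor-nitrogen lists from 0.02 and 0.01 to -0.01 and -0.02 with median-of-ratios scaling; 21 values of named genes moved by more than the spread of the reference libraries, all with a pseudocount of 10, and 2280 did not. Depth of 6.36 to 8.44 M fragments limits genes near 10 FPKM.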

Other observations

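Neighbouring genes transcribed away from each other gave 1011 tested pairs. In 70 pairs at least 1 gene passed the rule, in 4 both rose, in 0 both fell and in 0 they went in opposite directions. The 4 pairs were PAI3 and SIP18 (650 bp between the genes, chromosome XIII), the histone pair HHF1 and HHT1 (646 bp, chromosome II), ZTA1 and FMP23 (321 bp, chromosome II), and YIG1 and CSM4 (328 bp, chromosome XVI). YIG1, whose protein binds glycerol-3-phosphatase, read 9.59, 13.5 and 35.3 FPKM and CSM4, a gene of meiotic chromosome movement, 4.22, 9.72 and 26.9 FPKM, changes of 1.55 and 1.90. CSM4 was under 10 FPKM in both reference libraries, so this pair was tested only because of the value of CSM4 at 0.0125%. ZTA1, a zeta-crystallin homologue, and FMP23, found in mitochondria, changed by 1.09 and 1.17.

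Genes that stayed within a 1.5-fold range from 0.4 to 0.02% and then left that range by a ratio of at least 5 to 4 numbered 26 that fell and 10 that rose. The rule for this count was made after the values were seen. The 10 were ADH7, REC114, HTB1, HSP104, CTA1, HHO1, TYE7, CRF1, FMP48 and HHT1. CRF1, a corepressor of ribosomal protein genes, read 10.7, 13.7 and 22.2 FPKM, a change of 0.82, while its range over the 8 other libraries was 9.72 and 13.7 FPKM.

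Short open reading frames stood out for exact zeros. YAR035C-A, YBL071C-B, YMR272W-B and YBR196C-A were listed at 0 at 0.0125% and counted as lower, and YAL037C-A was listed at 0 at 0.025 and 0.02% and counted as higher, so no fold is given. Of the 146 genes that rose 29 were up to 300 bp long, as were 14 of the 50 that fell, against 252 of all 4833 tested genes.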
